A study of Arabidopsis thaliana with 32 samples.

Results

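Transcripts in leaves of the atxr5/6 gcn5 combination were compared with those of the gcn5 mutant, which asks what loss of ATXR5 and ATXR6 does in plants that already carry the gcn5 mutation. The comparison contrasted 4 of the 8 RNA-seq libraries, taken by their genotype labels, out of 32 samples in all. All 8 entered the fit, so the other 4 also helped to set the scaling, the filter on low counts and the estimate of the spread. The groups were atxr5/6 gcn5 (mutant for ATXR5, ATXR6 and GCN5) and gcn5 (mutant for GCN5 only), each with 2 libraries, so the gcn5 mutation is common to both sides. The atxr5/6 double mutant and the wild type, with 2 libraries each, served as the same contrast without the gcn5 mutation. All plants were of the Col-0 ecotype, and leaves were taken at 3 weeks from plants grown in long days. The labels name no alleles and do not say whether the 2 libraries of a genotype came from separate plants, so p-values measure only the spread between these libraries.

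ATXR5 and ATXR6 place a single methyl group on lysine 27 of the replication-dependent histone H3.1, and their loss is known to release silent transposable elements and to cause excess DNA replication in heterochromatin. GCN5, also called HAG1, is the acetyltransferase of the SAGA complex and can acetylate several lysines of histone H3. In plants, broken or stalled DNA is signalled through the transcription factor SOG1, which switches on repair genes, nucleotide supply genes and inhibitors of the cell cycle.

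Gene counts summed to 24860332 to 43969417 per library and transposable element (TE) counts to 75865 to 171823. Nuclear ribosomal RNA held 19.1% and 14.7% of gene counts in atxr5/6 gcn5, against 21.2% and 13% in gcn5. The same share was 0.86% and 2.33% in atxr5/6, against 0.287% and 0.63% in wild type. The rRNA share thus overlapped between atxr5/6 gcn5 and gcn5, but it set these 4 libraries apart from the other 4, and any effect of that on the comparison of the contrasts with and without gcn5 cannot be told apart from the mutation itself. Leaf markers summed to 15900 and 18200 CPM (counts scaled to library size by edgeR's cpm function with the TMM factors of the gene table) in atxr5/6 gcn5 and to 19300 and 17800 CPM in gcn5. None of the 8 seed markers passed the filter on low counts, and the 7 flower markers summed to 3.96 and 7.40 CPM in atxr5/6 gcn5 against 2.56 and 8.81 CPM in gcn5.

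Among the targeted genes, ATXR5 (AT5G09790) had 0.229 and 0.171 CPM in atxr5/6 gcn5, against 1.95 and 2.07 CPM in gcn5. Both atxr5/6 gcn5 libraries lay far below both gcn5 libraries, and the log2 fold change was -3.30 (edgeR adjusted p = 0.00709, SE 0.27). ATXR6 (AT5G24330) was at 0.588 and 0.377 CPM in atxr5/6 gcn5, against 0.893 and 0.753 CPM in gcn5. Its libraries did not overlap, but it rested on 29 counts over both atxr5/6 gcn5 libraries and 42 over both gcn5 libraries and was not called (log2 fold change -0.76, SE 0.32, adjusted p = 0.857, edgeR). HAG1, the gene of GCN5 (AT3G54610), was at 6.11 and 4.83 CPM in atxr5/6 gcn5 and at 5.36 and 4.86 CPM in gcn5. These overlapping counts do not check the gcn5 label, because the position and kind of the mutation are not given in the sources used here.

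Few genes were called between atxr5/6 gcn5 and gcn5, and 7 of the 18 called were on the DNA damage response list, among them PARP2, SMR7 and XRI1. That list was chosen with earlier results of these data known, so its share of the calls is described and not tested. Of 19575 genes tested, 16 were called higher (0.0817%) and 2 lower (0.0102%), which makes 18 called in all (0.092%), by edgeR's quasi-likelihood test at a Benjamini-Hochberg adjusted p under 0.05. At an unadjusted p under 0.05 there were 1135 genes (5.8%). In atxr5/6 against wild type the same fit called 1072 genes higher (5.48%) and 1506 lower (7.69%). With only the 4 libraries of the compared genotypes in the fit no gene was called, the smallest adjusted p being 0.0898, and 786 genes had an unadjusted p under 0.05. Leaving out 1 library changed the count to 78 without atxr5/6 gcn5 replicate 1 (17 higher, 61 lower), 5 without atxr5/6 gcn5 replicate 2 (all higher), and 4 without either atxr5/6 library (3 higher, 1 lower). Without gcn5 replicate 2 there were 15, with 5 higher and 10 lower, so leaving out that library or atxr5/6 gcn5 replicate 1 put most calls on the lower side.

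The gene with the smallest p was AT4G22960, a member of the damage response list. It was at 5.69 and 5.48 CPM in atxr5/6 gcn5, against 0.365 and 0.527 CPM in gcn5. Both libraries of each genotype lay close together, and the difference was 12.4-fold (log2 fold change 3.63, SE 0.23, adjusted p = 0.0032, edgeR). PARP2 (AT4G02390), a poly(ADP-ribose) polymerase that marks DNA breaks, was at 15.1 and 15.1 CPM in atxr5/6 gcn5, against 3.94 and 2.56 CPM in gcn5. The libraries of the genotypes did not overlap, and PARP2 was 4.66-fold higher (log2 fold change 2.22, SE 0.17, adjusted p = 0.00665, edgeR).

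SMR7 (AT3G27630), a SIAMESE-related inhibitor of cyclin-dependent kinases, was at 2.97 and 2.74 CPM in atxr5/6 gcn5, against 0.284 and 0.452 CPM in gcn5. It was 7.65-fold higher, with no overlap between libraries (log2 fold change 2.93, SE 0.29, adjusted p = 0.0186, edgeR). XRI1 (AT5G48720), named for its induction by X-rays and needed in meiosis, was at 16.0 and 19.7 CPM in atxr5/6 gcn5, against 6.17 and 6.77 CPM in gcn5. XRI1 was 2.75-fold higher (adjusted p = 0.0109, edgeR). RPA1E (AT4G19130), a large subunit of the single-strand binding protein RPA, was at 2.58 and 2.47 CPM in atxr5/6 gcn5, against 0.771 and 0.941 CPM in gcn5. TK1A (AT3G07800), a thymidine kinase of the nucleotide salvage pathway, was at 16.7 and 18.6 CPM in atxr5/6 gcn5, against 8.56 and 9.03 CPM in gcn5. RPA1E was 2.93-fold and TK1A 2.01-fold higher (adjusted p = 0.0373 for each, edgeR). AT5G60250 was at 3.76 and 4.45 CPM in atxr5/6 gcn5, against 1.26 and 0.866 CPM in gcn5, a 3.87-fold difference (adjusted p = 0.0172, edgeR). AT5G60250 overlaps the neighbouring AT5G60260 in the RefSeq gene table, so its reads could be shared.

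**Figure D1:**
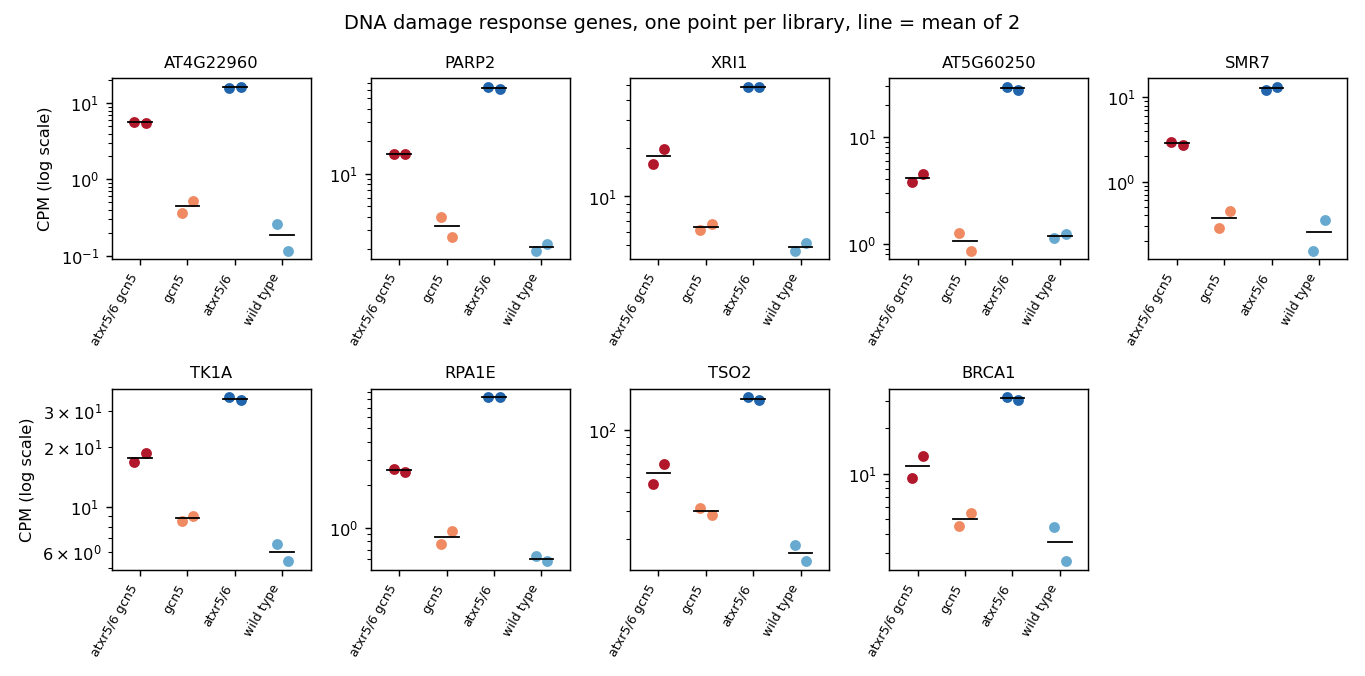
Shown are 9 members of the damage response list with a low p in atxr5/6 gcn5 against gcn5, with CPM on a log axis that differs between panels, 1 point per library and a line at the mean of 2 libraries, with atxr5/6 gcn5 left of gcn5 and atxr5/6 left of wild type. In every panel both atxr5/6 gcn5 points lie above both gcn5 points and below both atxr5/6 points, as for PARP2 at 15.1 and 15.1 CPM in atxr5/6 gcn5, 3.94 and 2.56 CPM in gcn5, below 64.2 and 60.4 CPM for atxr5/6.

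Of the 26 genes on the damage response list, 25 were tested and 1 had no counts in any library. Because earlier results were known when the list was chosen, the shares over all genes beside it are no independent test. The 7 genes above were called higher and none was called lower, and 16 of the 25 had an unadjusted p under 0.05, against 0.0817% of all genes called higher and 5.8% at that unadjusted p. The number called was 2 without gcn5 replicate 2 or either atxr5/6 library, 3 without atxr5/6 gcn5 replicate 2 or gcn5 replicate 1, 4 with the replicate block and 0 with only the 4 libraries compared. The median log2 fold change of the 25 was 0.81, beside -0.004 over all genes tested, and the range was -0.47 to 3.63. CPM of the genotypes did not overlap, with atxr5/6 gcn5 higher, in 18 of the 25, against 16.9% of all genes tested. The median was 1.02 without atxr5/6 gcn5 replicate 1 and 0.63 without atxr5/6 gcn5 replicate 2.

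The other 2 plotted genes were higher in both libraries but did not pass the threshold over all genes. BRCA1 (AT4G21070), a repair factor, was at 9.35 and 13.0 CPM in atxr5/6 gcn5, against 4.50 and 5.50 CPM in gcn5 (adjusted p = 0.374, edgeR). TSO2 (AT3G27060), a small subunit of ribonucleotide reductase, was at 44.6 and 60.5 CPM in atxr5/6 gcn5, against 31.4 and 28.5 CPM in gcn5 (adjusted p = 0.37, edgeR).

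The same list moved much further in atxr5/6 against wild type, where 20 of the 25 tested genes were called higher and the median log2 fold change was 2.53, against 5.48% of all genes called higher and a median of -0.006. These 2 contrasts have no library in common, but the list was chosen with earlier results of these data known. Of those 20 genes, 7 were called in atxr5/6 gcn5 against gcn5, and 9 of the other 13 were higher at an unadjusted p under 0.05. The 5 genes not called in atxr5/6 against wild type included none with an unadjusted p under 0.05 in atxr5/6 gcn5 against gcn5. Tested as a difference between the contrasts, 8 of the 25 genes had a smaller effect with gcn5 than without it, none had a larger one, and the background of such smaller effects was 0.204% of all genes. PARP2 was at 64.2 and 60.4 CPM in atxr5/6, against 1.93 and 2.20 CPM in wild type, a 30.4-fold difference beside the 4.66-fold difference with gcn5. The difference between these effects was -2.70 on the log2 scale (SE 0.25, adjusted p = 0.0116, edgeR). TSO2 was at 162 and 155 CPM in atxr5/6, against 18.1 and 14.3 CPM in wild type, a 9.73-fold difference beside a 1.75-fold one with gcn5 (difference -2.47, SE 0.23, adjusted p = 0.0122, edgeR). SMR7 was at 12.1 and 13.4 CPM in atxr5/6, against 0.152 and 0.348 CPM in wild type, and its smaller effect with gcn5 missed the threshold (difference -2.86, SE 0.49, adjusted p = 0.0555, edgeR).

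Of the other 11 called genes outside the damage list, 9 were higher and 2, ATXR5 and ERF5, were lower. KCS17 (AT4G34510), a ketoacyl-CoA synthase that elongates very long fatty acids, was at 3.73 and 3.63 CPM in atxr5/6 gcn5, against 0.528 and 0.414 CPM in gcn5. It was 7.79-fold higher (log2 fold change 2.96, SE 0.20, adjusted p = 0.0032, edgeR). TRFL10 (AT5G03780), of the TRF-like DNA binding family, was at 3.37 and 3.32 CPM in atxr5/6 gcn5, against 1.10 and 0.866 CPM in gcn5, a 3.41-fold difference (adjusted p = 0.0428). Hsp70-2 (AT5G02490), a cytosolic heat shock protein, was at 30.2 and 26.9 CPM in atxr5/6 gcn5, against 16.7 and 16.2 CPM in gcn5. AT2G37240 was at 18.9 and 19.5 CPM in atxr5/6 gcn5, against 11.8 and 11 CPM in gcn5. Both differed by less than the 7 called damage response genes, 1.74-fold for Hsp70-2 (adjusted p = 0.0373, edgeR) and 1.69-fold for AT2G37240 (adjusted p = 0.0428, edgeR).

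CYP705A19 (AT3G20100), a cytochrome P450, was at 13.7 and 13.0 CPM in atxr5/6 gcn5, against 6.70 and 7.30 CPM in gcn5 (log2 fold change 0.93, SE 0.11, adjusted p = 0.0373, edgeR). It was the only gene called higher here that was not called in atxr5/6 against wild type, where it stood at 15.2 and 15.5 CPM in atxr5/6 and 11.7 and 13.1 CPM in wild type (adjusted p = 0.0728, edgeR). The difference between its effects was 0.62 (SE 0.14) and did not pass the threshold (adjusted p = 0.102, edgeR). ERF5 (AT5G47230), an ethylene response factor, was at 2.35 and 1.64 CPM in atxr5/6 gcn5, against 7.75 and 12 CPM in gcn5. It was lower here (log2 fold change -2.30, SE 0.27, adjusted p = 0.0373, edgeR) and called higher in atxr5/6 against wild type, at 11.2 and 11 CPM in atxr5/6 and 3.8 and 5.33 CPM in wild type. The difference between its effects was -3.60 (SE 0.37, adjusted p = 0.0133, edgeR).

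The remaining 4 higher features were low or silent in gcn5 and lie among pseudogenes or are annotated as long noncoding RNA. AT1G40129 was at 1.5 and 1.27 CPM in atxr5/6 gcn5 and had no count in either gcn5 library, so it was at least 23.7-fold higher against a floor of 3 counts over both gcn5 libraries (adjusted p = 0.0373, edgeR). AT2G11778 was at 3.53 and 3.15 CPM in atxr5/6 gcn5, against 0 and 0.263 CPM in gcn5 (log2 fold change 4.58, SE 0.50, adjusted p = 0.039, edgeR). AT3G06465, a long noncoding RNA, was at 1.57 and 1.34 CPM in atxr5/6 gcn5, against 0.0406 and 0.151 CPM in gcn5 (log2 fold change 3.85, SE 0.41, adjusted p = 0.0373, edgeR). These 3 features have a pseudogene on each side in the RefSeq table. AT1G06577, also a long noncoding RNA, was at 3.33 and 3.39 CPM in atxr5/6 gcn5, against 0.568 and 0.790 CPM in gcn5 (log2 fold change 2.29, SE 0.21, adjusted p = 0.0129, edgeR).

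**Figure D2:**
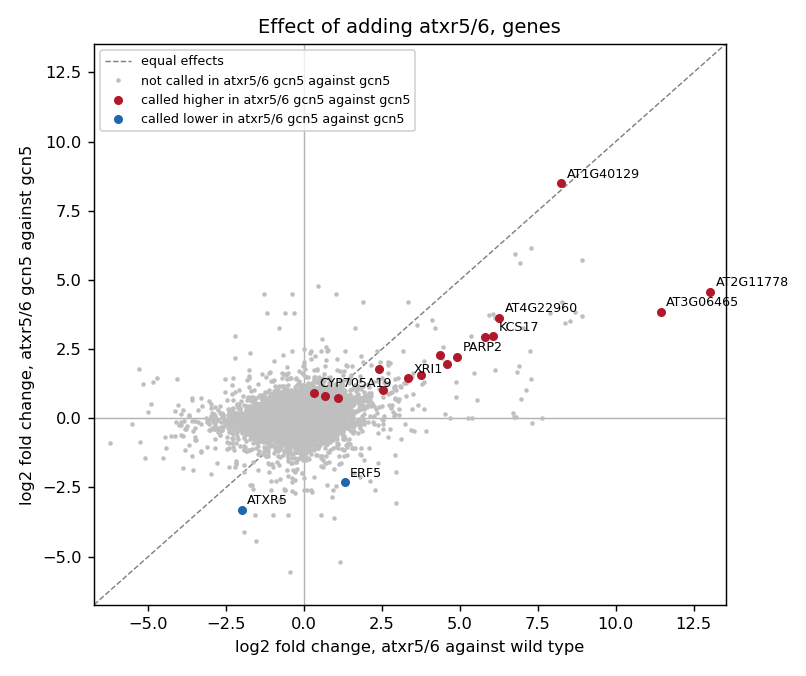
Log2 fold change of each of 19575 genes in atxr5/6 gcn5 against gcn5 (vertical axis) and in atxr5/6 against wild type (horizontal axis), with the 16 genes called higher in red, the 2 called lower in blue and a dashed line where the effects are equal. Most of the red points lie right of the dashed line, and ERF5 is the blue point with a positive effect without gcn5. Fitted values of genes without counts on 1 side depend on the prior count.

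Among the 16 genes called higher, 15 (93.8%) were also called higher in atxr5/6 against wild type, which is 1.4% of the 1072 genes called there. In 13 of these 15 the fitted change was smaller with gcn5, and in 8 of the 15 the difference between the effects was called. The 1072 genes had a median log2 fold change of 0.79 in atxr5/6 against wild type and of 0.14 in atxr5/6 gcn5 against gcn5, where 751 of them (70.1%) were above 0. Over all genes tested 48.9% were above 0. The 75 genes that atxr5/6 raised by a log2 fold change of 3 or more had medians of 4.89 without gcn5 and 1.63 with it, and 86.7% were above 0 with gcn5. The 1506 genes that atxr5/6 lowered had medians of -0.87 without gcn5 and -0.04 with it. Across all genes, which are not independent replicates, the log2 fold changes of the contrasts had a Pearson's r of 0.301 and a Spearman's rho of 0.113 (n = 19575).

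No gene was called in the lists for H3K27 methylation and demethylation, histone acetyltransferases and SAGA subunits, H3.1 and H3.3 and their chaperones, damage signalling and end joining, replication licensing, mitosis, transposon silencing, the salicylic acid response or the jasmonate response. With 0.092% of all genes called, a count of 0 in lists this short is near the background. Their median log2 fold changes lay between -0.11 (mitosis, 9 genes tested) and 0.22 (jasmonate response, 10 genes tested). Among sensor and end joining genes, ATM (AT3G48190), the kinase that signals double-strand breaks, was at 33.8 and 32.3 CPM in atxr5/6 gcn5, against 34.9 and 36.8 CPM in gcn5 (adjusted p = 0.95, edgeR). CDC6 (AT2G29680), a replication licensing factor, was at 4.09 and 4.18 CPM in atxr5/6 gcn5, against 6.94 and 4.82 CPM in gcn5 (adjusted p = 0.857, edgeR). NRPD1 (AT1G63020), the largest subunit of RNA polymerase IV in small RNA silencing, was at 7.65 and 7.37 CPM in atxr5/6 gcn5, against 5.88 and 6.40 CPM in gcn5 (adjusted p = 0.842, edgeR). SWN (AT4G02020), a Polycomb methyltransferase of H3K27, was at 27.9 and 28.0 CPM in atxr5/6 gcn5, against 24.1 and 26.3 CPM in gcn5 (adjusted p = 0.914, edgeR).

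In the salicylic acid list 6 of the 17 genes had an unadjusted p under 0.05, against 5.8% of all genes, and none was called, against 0.092% of all genes. PR1 (AT2G14610), a pathogenesis-related protein and a standard marker of this response, was at 81.6 and 52.1 CPM in atxr5/6 gcn5, against 38.1 and 48.8 CPM in gcn5 (adjusted p = 0.817, edgeR). PR5 (AT1G75040) was at 64.1 and 39.6 CPM in atxr5/6 gcn5, against 30.7 and 38.9 CPM in gcn5 (adjusted p = 0.804, edgeR). In both genes replicate 1 of atxr5/6 gcn5 stood above the other 3 libraries, which were close to each other. WRKY70 (AT3G56400), a transcription factor of this response named after its value was seen, went the other way, at 72.7 and 57.9 CPM in atxr5/6 gcn5, against 82 and 104 CPM in gcn5 (log2 fold change -0.51, SE 0.20, adjusted p = 0.819, edgeR). The whole list summed to 859 and 584 CPM in atxr5/6 gcn5, against 569 and 687 CPM in gcn5.

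A larger share of the tested TEs than of the tested genes was called, but these shares are not directly comparable. A TE silent in most libraries passes the filter on low counts only through those where it is high. Of 31189 listed TEs only 1540 were tested, and p-values were adjusted within each table. Of 1540 TEs tested, 173 were called higher (11.2%) and 22 lower (1.43%) in atxr5/6 gcn5 against gcn5, by edgeR with the size factors of the gene table. A TE is annotated here by identifier only, and reads of near-identical copies could be split or shared between identifiers. The contrast of atxr5/6 with wild type called 476 TEs (30.9%), with 410 up (26.6%) and 66 down (4.29%). CPM did not overlap between atxr5/6 gcn5 and gcn5 in 436 TEs that were higher (28.3%) and 262 that were lower (17%). With only the 4 libraries compared, 88 TEs were higher and 13 lower, and without gcn5 replicate 2 the counts were 105 and 4.

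The higher TEs were nearly silent in gcn5. Over both gcn5 libraries 63 of the 173 had no count, 70 had 1 to 3 counts and 40 had more. Their median level was 0.49 CPM in atxr5/6 gcn5 and 0.0188 CPM in gcn5, and 1.62 CPM in atxr5/6 and 0.0109 CPM in wild type. The median fitted log2 fold change was 4.84, and 3.24 with TEs without counts in gcn5 set to their lower bound. Together the 173 TEs summed to 181 and 172 CPM in atxr5/6 gcn5, against 16.4 and 16.0 CPM in gcn5. They were selected by this contrast, so the gap in their sums, medians and fold changes follows in part from the choice.

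AT4TE19655 had the smallest p among them. It was at 17.9 and 15.3 CPM in atxr5/6 gcn5, against 0.325 and 0.640 CPM in gcn5, a 33.9-fold difference (log2 fold change 5.08, SE 0.24, adjusted p = 1.78e-07, edgeR). In atxr5/6 it was at 15.3 and 14.0 CPM, against 0.0869 and 0.116 CPM in wild type, so it reached a similar level with and without gcn5. AT5TE42710 was at 4.64 and 5.38 CPM in atxr5/6 gcn5, against 0.0812 and 0.151 CPM in gcn5 (41.4-fold, adjusted p = 2.36e-07, edgeR). In atxr5/6 it was at 19.9 and 18.8 CPM, against 0.0652 and 0.0386 CPM in wild type, well above its level in atxr5/6 gcn5. AT4TE15820 was at 2.65 and 2.43 CPM in atxr5/6 gcn5, against 0.0406 and 0.0753 CPM in gcn5, where it had 3 counts in all. Its ratio was 43.4 with a counting interval of 14.6 to 213 (exact conditional, 95%, for counting error only). It stood at 18.5 and 19.1 CPM in atxr5/6 and had no count in wild type.

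AT5TE41070 was at 4.22 and 4.59 CPM in atxr5/6 gcn5, against 0.0406 and 0.151 CPM in gcn5 (43.5-fold, adjusted p = 4.01e-07, edgeR). AT1TE49260 was at 2.84 and 2.71 CPM in atxr5/6 gcn5, against 0.0406 and 0.0376 CPM in gcn5, a ratio of 71.1 with a counting interval of 19.4 to 592. AT1TE54480 was at 4.51 and 3.49 CPM in atxr5/6 gcn5, against 0 and 0.0753 CPM in gcn5, a ratio of 103 with a counting interval of 28.1 to 854. The other 4 of the 10 named higher TEs, all with identifiers on chromosome 5, were at 3.46 to 5.17 CPM in atxr5/6 gcn5, against 0.0406 to 0.243 CPM in gcn5. All 10 stayed called in every alternative run, the 4-library fit and DESeq2 included.

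Of the 173 TEs, 168 (97.1%) were also called higher in atxr5/6 against wild type, which is 41% of the 410 TEs called there. Among those 168, the fitted change was smaller with gcn5 in 149. The difference between the effects was called for 23, always as a smaller effect with gcn5, and was not called for 145. Most of these TEs had few or no counts in gcn5 and wild type, so an uncalled difference does not show equal effects. The 410 TEs were above 0 in atxr5/6 gcn5 against gcn5 in 340 cases (82.9%), against 54% of all TEs tested, and 7 of them were called lower there. Their median log2 fold change with gcn5 was 2.73 as fitted, and 1.54 with the 112 TEs without counts in gcn5 at their bound. Those 112 TEs cannot fall below 0. A TE silent in most libraries also passes the filter only through those where it is high. The share of 82.9% thus follows in part from the floor and the filter. Across all TEs, with the same limit, the log2 fold changes of the contrasts had a Pearson's r of 0.817 and a Spearman's rho of 0.459 (n = 1540).

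**Figure D3:**
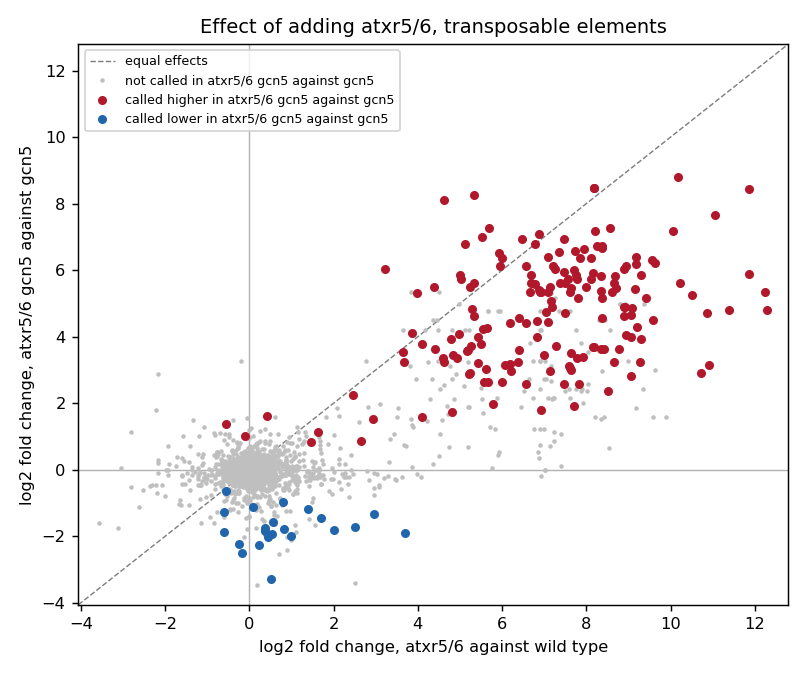
Log2 fold change of each of 1540 TEs in atxr5/6 gcn5 against gcn5 (vertical axis) and in atxr5/6 against wild type (horizontal axis), with the 173 TEs called higher in red and the 22 called lower in blue. The red points form a cloud at large effects on both axes, mostly right of the dashed line of equal effects, while the blue points lie apart, at smaller horizontal values. Fitted values of TEs without counts on 1 side depend on the prior count.

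The 5 higher TEs not called higher in atxr5/6 against wild type were AT4TE26330, AT5TE00480, AT5TE29665, AT5TE31350 and AT5TE50045, named after their values were seen. AT5TE31350 was at 7.62 and 6.24 CPM in atxr5/6 gcn5, against 4.22 and 2.75 CPM in gcn5 (log2 fold change 1.00, SE 0.20, adjusted p = 0.00593, edgeR), and at 13.9 and 13.3 CPM in atxr5/6, against 15 and 14.3 CPM in wild type. The difference between its effects was 1.10 (SE 0.27, adjusted p = 0.0398, edgeR). AT4TE26330 was at 2.94 and 3.32 CPM in atxr5/6 gcn5, against 1.75 and 0.677 CPM in gcn5, and at 0.0432 and 0.098 CPM in atxr5/6, against 0.0652 and 0.154 CPM in wild type, and the difference between its effects was not called (1.94, SE 1.03, adjusted p = 0.335, edgeR). AT5TE50045 was at 1.41 and 0.685 CPM in atxr5/6 gcn5 and had no count in gcn5.

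The higher TEs were concentrated in the middle of each chromosome's identifier order, which runs along the chromosome. When the listed TEs of each chromosome were cut into 10 bins of equal size, bins 4 to 6, chosen after the values were seen, held 135 of the 173 (78%). A TE that is silent in most libraries passes the filter on low counts only through the libraries where it is high, so shares are given over all listed TEs, tested or not. In bins 4 to 6, 1.44% of 9357 listed TEs were called higher, against 0.174% of 21832 in the other bins. The share was 2.02% in bin 4 and 0% in bin 10. TEs called higher lay on all 5 chromosomes. The longest stretch was 10 tested TEs in a row on chromosome 5, from AT5TE42710 to AT5TE43385, all higher. The next were 8 in a row on chromosome 3 and 7 on chromosome 1. Untested TEs were passed over in these stretches, so the filter itself favours unbroken runs. Of the 22 lower TEs, 3 were in bins 4 to 6, which held 318 tested TEs, and 19 were in the other bins, which held 1222. These counts are too few to set their placement apart from that of the tested TEs.

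**Figure D4:**
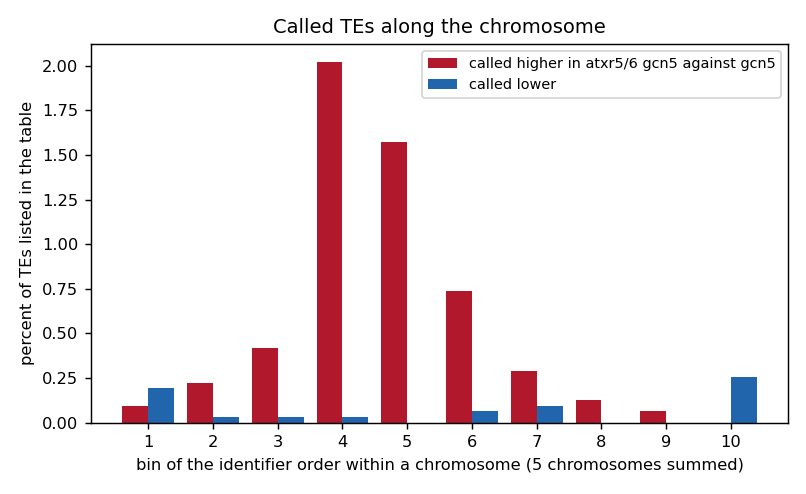
Percent of listed TEs, tested or not, called higher (red) and lower (blue) in atxr5/6 gcn5 against gcn5 in each of 10 bins of the TE identifier order, summed over 5 chromosomes. The red bars peak at 2.02% and 1.57% in bins 4 and 5, and the blue bars stay at or under 0.256%.

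The 22 lower TEs had a median log2 fold change of -1.80. In atxr5/6 against wild type 7 of the 22 were called higher, and AT2TE26610 was the only one lower there too. The most abundant was AT2TE00095, at 107 and 106 CPM in atxr5/6 gcn5, against 339 and 409 CPM in gcn5 (log2 fold change -1.82, SE 0.37, adjusted p = 0.00603, edgeR). In atxr5/6 it was at 10 and 22.2 CPM, against 2.28 and 6.03 CPM in wild type, far below its level in the 4 libraries that carry gcn5. AT3TE58570 was at 98.0 and 81.6 CPM in atxr5/6 gcn5, against 202 and 293 CPM in gcn5 (log2 fold change -1.46, SE 0.33, adjusted p = 0.0119, edgeR). AT2TE00085 was at 3.27 and 2.50 CPM in atxr5/6 gcn5, against 7.79 and 11.2 CPM in gcn5 (adjusted p = 0.000946, edgeR), and at 0.194 and 0.523 CPM in atxr5/6, against 0.0652 and 0.0386 CPM in wild type. Like the rRNA share, these TEs were high in the 4 libraries with gcn5. Within gcn5 each was higher in replicate 2, which had the lower rRNA share of 13%. Within atxr5/6 gcn5 each was higher in replicate 1, which had the higher share of 19.1%. The part of the rRNA share in their levels was not tested.

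The order of the genotypes in a summed TE level changed with 2 TEs. The 410 TEs raised by atxr5/6 in the wild-type background summed to 610 and 582 CPM in atxr5/6 gcn5, against 789 and 952 CPM in gcn5. Without AT2TE00095 and AT3TE58570, a choice made after the values were seen, the other 408 summed to 405 and 395 CPM in atxr5/6 gcn5, against 248 and 250 CPM in gcn5. The same 408 summed to 1120 and 1120 CPM in atxr5/6, against 165 and 169 CPM in wild type, but they were selected by that contrast. The whole TE table held 0.31% and 0.344% of the gene counts in atxr5/6 gcn5, against 0.292% and 0.402% in gcn5, with means of 0.327% ± 0.0243 and 0.347% ± 0.0777 (SD, n = 2 each). These shares overlapped (exact permutation test, two-sided, p = 0.667, where 2 against 2 allows no p below 0.333).

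**Figure D5:**
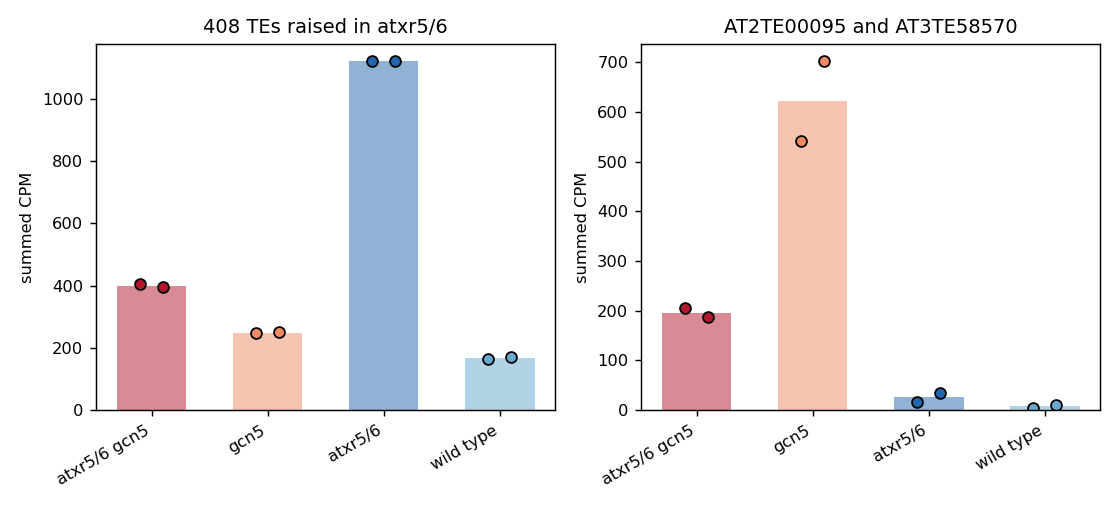
Summed CPM per library (points) and its mean over 2 libraries (bars) for the 408 TEs called higher in atxr5/6 against wild type without AT2TE00095 and AT3TE58570 (left), and for these 2 TEs alone (right). The left sums are 405 and 395 CPM in atxr5/6 gcn5 and 248 and 250 CPM in gcn5, whereas the right sums are 205 and 187 CPM in atxr5/6 gcn5 and 541 and 702 CPM in gcn5.

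The effect of adding atxr5/6 was then tested for a difference with and without gcn5. Of 19575 genes, 92 differed (0.47%), 52 with a higher and 40 with a lower value with gcn5. No gene differed when either atxr5/6 library was left out, at which 2137 and 2118 genes still had an unadjusted p under 0.05, and 941 differed without wild type replicate 1, 663 without atxr5/6 gcn5 replicate 2, 32 without gcn5 replicate 1 and 19 without gcn5 replicate 2. Of 1540 TEs, 76 differed (4.94%), 8 with a positive (0.519%) and 68 with a negative difference (4.42%). Of the 68, 60 were among the TEs called higher in atxr5/6 against wild type. Of the 8, 7 were among those called lower there. The TE count was 14 without atxr5/6 replicate 2, 23 without gcn5 replicate 2, 25 without atxr5/6 replicate 1, and 26 and 28 without wild type replicates 1 and 2.

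Among genes with a positive difference, the 3 with the smallest p were neighbouring identifiers, AT3G22235, AT3G22240 and PCC1 (AT3G22231), whose reads could be shared. PCC1, named for its control by pathogens and the circadian clock, was at 78.6 and 96.4 CPM in atxr5/6 gcn5, against 90.0 and 85.7 CPM in gcn5, with overlapping libraries. In atxr5/6 it was at 13.1 and 14.9 CPM, against 93.4 and 73.1 CPM in wild type. The difference between the effects was 2.57 (SE 0.21, adjusted p = 0.00813, edgeR). AT3G22235 was at 108 and 131 CPM in atxr5/6 gcn5, against 116 and 116 CPM in gcn5, and at 19.4 and 18.9 CPM in atxr5/6, against 101 and 89.9 CPM in wild type (difference 2.36, SE 0.16, adjusted p = 0.00654, edgeR). MRU1 (AT5G35490) went the other way, at 3.73 and 3.53 CPM in atxr5/6 gcn5, against 5.44 and 4.74 CPM in gcn5, and at 25.8 and 26.0 CPM in atxr5/6, against 8.87 and 8.46 CPM in wild type (difference -2.06, SE 0.15, adjusted p = 0.00677, edgeR).

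Among TEs, AT4TE09845 had the smallest p. It was at 3.07 and 2.71 CPM in atxr5/6 gcn5, against 2.03 and 2.30 CPM in gcn5, and at 25.4 and 25 CPM in atxr5/6, against 1.2 and 0.966 CPM in wild type. It was thus 22.9-fold higher in atxr5/6 against wild type and 1.33-fold in atxr5/6 gcn5 against gcn5, a difference of -4.10 (SE 0.26, adjusted p = 3.53e-06, edgeR). AT1TE93275 was at 3.82 and 3.05 CPM in atxr5/6 gcn5, against 3.45 and 2.67 CPM in gcn5, and at 2.37 and 2.32 CPM in atxr5/6, against 0.130 and 0.0772 CPM in wild type. In this TE the level was about the same in atxr5/6 gcn5, gcn5 and atxr5/6, and low only in wild type (difference -4.19, SE 0.42, adjusted p = 0.000331, edgeR).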

How the data were processed

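Gene and TE counts are whole-number read counts, deposited by the authors as raw tables with 1 column per library. The unit was read from the values. Per the labels' protocols, leaf RNA was isolated on RNeasy columns, depleted with Ribo-Zero Plant and made into stranded total RNA libraries. The submitters' processing notes list STAR 2.7.2a, featureCounts 1.6.4, DESeq2 1.26, Bowtie2 and Picard, with no role. The strand setting and the treatment of reads with several positions are not given in the sources used here. The 24 ChIP samples were not analysed here.

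Tests used edgeR 4.0.16 in R 4.3.3 (glmQLFit and glmQLFTest) with all 8 libraries and genotype as the only term, which leaves 4 residual degrees of freedom. Low counts were removed with filterByExpr (minimum count 10) and TMM factors of the gene table scaled both tables. P-values were adjusted by Benjamini-Hochberg within each table, and calls were made below an adjusted p of 0.05. The SE was the absolute log2 fold change over the square root of the F statistic. The difference of the atxr5/6 effect with and without gcn5 was an interaction contrast in that fit. Where the lower group had no counts, a fold is a bound against 3 counts over the group. With 1 to 3 counts a ratio with its exact conditional interval is given. The procedure was tested on simulated data.

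Gene names came from a RefSeq gene table of TAIR10.1, which lists 33056 of 33341 identifiers (99.1%). Neighbouring and overlapping genes were also read from it, whereas no coordinates were used for TEs. The rRNA share covers 7 features, 4 of them by RefSeq biotype and the others chosen after their counts were seen. The genes named were the targeted genes, every called gene, up to 10 damage response members (1 is not reported here) and up to 4 members of the other lists with the smallest p, the 10 higher and 5 lower TEs with the smallest p among those without overlap, and the 3 higher and 3 lower features with the smallest interaction p. The comparison, the gene lists and the naming rule were chosen with earlier results of these data known. Alternatives were other size factors, other filters, DESeq2 1.42.0, removal of organelle and rRNA features, the compared genotypes alone, a replicate block and each library left out in turn. The 2 libraries of each genotype varied beyond counting noise. Chi-square per degree of freedom over genes was 85.6 in atxr5/6 gcn5 and 83.4 in gcn5, against 22.3 in atxr5/6 and 23.6 in wild type. The fit shared its estimate of the spread over all 8 libraries, so it can understate the spread of the compared genotypes.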

Additional observations from a re-analysis of the deposited data

Results flagged for a closer look

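For 31 named features the effect of adding atxr5/6 differed with and without gcn5 by the interaction test in edgeR. The values below are the log2 fold change of atxr5/6 gcn5 against gcn5 minus that of atxr5/6 against wild type. Their sign alone does not tell whether the change was smaller with gcn5. PCC1, with a positive value, changed by -2.57 without gcn5 and by -0.01 with it. AT4TE88500, with a negative value, changed by 0.37 without gcn5 and by -1.75 with it.

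Among genes of the damage response the difference was -2.64 for AT4G22960, -2.70 for PARP2, -1.86 for XRI1, -2.64 for AT5G60250, -1.52 for TK1A, -2.20 for RPA1E and -2.47 for TSO2. It was -3.11 for KCS17, -2.06 for the long noncoding RNA AT1G06577, -3.60 for ERF5, -2.06 for MRU1 and -1.78 for AT1G60590. It was positive in AT3G22235 at 2.36, in AT3G22240 at 2.29 and in PCC1 at 2.57.

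Among TEs higher in atxr5/6 gcn5 than in gcn5, the difference was -2.09 for AT4TE19655, -2.97 for AT5TE42710, -3.71 for AT5TE41070, -2.17 for AT5TE42470 and -6.90 for AT4TE15820, the last of which had no count in wild type, so that its value depends on the prior count. Among TEs lower in atxr5/6 gcn5 than in gcn5, it was -4.22 for AT2TE00085, -2.12 for AT4TE88500, -3.81 for AT2TE00095, -5.59 for AT5TE37665 and -2.46 for AT3TE82950. The remaining TEs were named for the interaction itself, at 1.85 for AT3TE76010, 3.96 for AT1TE17410, 2.38 for AT1TE10570, -4.10 for AT4TE09845, -4.19 for AT1TE93275 and -5.69 for AT3TE58895.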

How the results depend on the processing

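The 18 called genes and the 15 called TEs taken by the naming rule kept their direction in every alternative that tested them. The 18 genes called in atxr5/6 gcn5 against gcn5 (16 higher, 2 lower) became 131 with library totals only (68 higher, 63 lower), 59 with no filter (36 and 23), 52 with DESeq2 (27 and 25), and 0 with only the 4 libraries compared, where 786 had an unadjusted p under 0.05. Leaving out 1 library gave 4 to 78, with more lower than higher calls without atxr5/6 gcn5 replicate 1 (17 higher, 61 lower) and gcn5 replicate 2 (5 and 10). The 7 called damage response genes became 0 to 12 over all alternatives. All 18 were among the DESeq2 calls. AT4G22960, KCS17 and PARP2 stayed called in 15 of 16 alternatives, and TRFL10 in 6. The 195 called TEs became 95 with a mean of at least 20 counts, 101 with the 4 libraries compared, 94 with DESeq2, and 109 to 186 with 1 library left out. The interaction called 707 genes with library totals only (527 higher, 180 lower), 988 with no filter (654 and 334), 513 with DESeq2 (327 and 186), and 0 to 941 with 1 library left out, beside 92 (52 and 40). For TEs it called 14 to 109 with 1 library left out, beside 76 (8 higher, 68 lower), and the TMM factors of the TE table gave 33 higher and 38 lower. Those factors moved the median log2 fold change of all TEs in atxr5/6 gcn5 against gcn5 to 0.244, beside 0.045, and that of the interaction to 0.072, beside -0.284. The damage response median ranged from 0.63 to 1.02 with 1 library left out. The TE share difference of -0.02 percentage points became 0.0201 without AT2TE00095 and AT3TE58570, and -0.075 to 0.0349 with 1 library left out. The log2 fold change of HAG1, not called, ran from -0.08 without atxr5/6 gcn5 replicate 1 to 0.26 without replicate 2. Where a genotype is left with 1 library, that library is assumed to vary like the others. With the replicate block 7 genes were called (6 higher, 1 lower) and the interaction called 31. Deviations of same-numbered libraries correlated at 0.183 between atxr5/6 gcn5 and gcn5 and at -0.17 to 0.0329 in the other pairs of genotypes. These values cannot decide whether the numbers pair the samples. The rRNA share was higher in replicate 1 of both genotypes, 19.1% in atxr5/6 gcn5 and 21.2% in gcn5, than in replicate 2, 14.7% and 13%. The causes of the changes between alternatives were not tested.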

Other observations

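The 6 genes next in order of p after the 18 called, named after their values were seen, did not pass the threshold. AGO2 (AT1G31280), an Argonaute protein that binds small RNAs, was at 8.57 and 8.36 CPM in atxr5/6 gcn5, against 4.46 and 3.76 CPM in gcn5 (adjusted p = 0.107, edgeR). DRP4C (AT1G60500) was at 0.785 and 0.856 CPM in atxr5/6 gcn5, against 0.0406 and 0.0753 CPM in gcn5 (adjusted p = 0.107, edgeR). AT4G09215 was at 1.37 and 1.47 CPM in atxr5/6 gcn5, against 0.203 and 0.151 CPM in gcn5, and AT1G32575 at 1.08 and 1.23 CPM in atxr5/6 gcn5, against 0.284 and 0.301 CPM in gcn5. MAF5 (AT5G65080), a repressor of flowering of the FLC family, was at 2.16 and 1.27 CPM in atxr5/6 gcn5, against 5.56 and 4.70 CPM in gcn5 (adjusted p = 0.107, edgeR). AT5G46710 was at 5.92 and 4.56 CPM in atxr5/6 gcn5, against 11.9 and 14.8 CPM in gcn5 (adjusted p = 0.0615, edgeR).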
